A study of Homo sapiens with 12 samples.

Results

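The genes described here are 10 autophagy receptors and core genes: SQSTM1, NBR1, OPTN, MAP1LC3B, GABARAPL1, GABARAPL2, ULK1, BECN1, WIPI1 and ATG5. They were chosen by symbol, as receptors and machinery that are commonly followed in autophagy, and make up 10 of the 59276 features in the table. The choice was made with earlier results of these data known, so counts of calls over the 10 genes are descriptions. All 10 were among the 11939 features that reached 1 TPM (transcript abundance per length, scaled to a fixed library total) in at least 3 libraries and were tested. RNA-seq had been run on MM1S cells, an established line from a human multiple myeloma, which is a cancer of plasma cells. The cells were harvested at 0, 2, 3 and 5 days of treatment with NGI-1, which blocks the oligosaccharyltransferase that attaches N-linked glycans to proteins in the endoplasmic reticulum. The dose was 10 μM according to the methods of the study, and each group had 3 libraries. The libraries of day 0 carry the NGI-1 label as well, but the study calls them untreated, and that name is used for them here. No untreated library was taken at a later day, so time in culture and NGI-1 cannot be told apart. Nothing states that the 3 libraries of a group came from separate cultures, so the p-values measure the spread between these samples, which may be technical.

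All 8 plasma cell markers, such as SDC1 and TNFRSF17, exceeded 1 TPM in every library, with a summed level of 3002 to 4037 TPM. Within that sum they moved apart: SDC1 went from 478 to 512 TPM in untreated cells to 128 to 165 TPM at day 5, and TNFRSF17 from 549 to 606 TPM to 2050 to 2129 TPM. Markers of B cells summed to at most 0.318 TPM, those of myeloid cells to at most 0.745 TPM and those of fibroblasts to at most 0.448 TPM, with CD22 and COL1A2 at 0. Of 3 T cell markers CD3D was at 0 and CD3E ranged from 2.75 to 7.22 TPM. In bulk RNA, fewer cells of a type and less RNA per cell cannot be told apart. TPM values of a library add up to a fixed total, and the share taken by 78 ribosomal protein features moved with the days. It was 28.1 to 29.2% in untreated cells, 33.4 to 34.0% at day 2, 40.1 to 44.2% at day 3 and 47.5 to 49.1% at day 5. The share of 37 mitochondrial features moved with it, from 9.33 to 10.7% in untreated cells to 13.4 to 14.7% at day 5, and the part of either in the values of the 10 genes was not tested. Against untreated cells the median change over the whole tested table was −0.18 (log2) at day 2, −0.73 at day 3 and −0.99 at day 5. A gene is said to be called, or to have risen or fallen, where limma's adjusted p was below 0.05 and the change larger than 0.5 on the log2 scale, which is named the fold threshold. The changes of the 10 genes against untreated cells are therefore given on the deposited scale, log2(TPM + 1), and again after rescaling. Rescaling set each library so that its typical feature kept the same level. Other changes are on the deposited scale where rescaling is not named. The files do not settle which scale is nearer to RNA per cell.

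Autophagy delivers cytoplasmic material to the lysosome inside a closed vesicle, the autophagosome. The ULK1 kinase complex starts the process, the lipid kinase complex built on BECN1 makes the phosphoinositide PI3P, WIPI proteins bind it, and a conjugation system that includes ATG5 couples the small ubiquitin-like ATG8 proteins (the LC3 and GABARAP families) to the growing membrane. Receptors such as SQSTM1 bind ubiquitinated cargo with one part and ATG8 proteins with another. Plasma cells and myeloma cells make large amounts of secreted immunoglobulin, and autophagy is known as one of the routes by which they dispose of surplus protein and endoplasmic reticulum.

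The 10 genes did not move as a block. At day 2, 7 of them were called higher than in untreated cells, against 8.04% of all tested features, led by OPTN at 2.62-fold and SQSTM1 at 2.28-fold. At day 5 SQSTM1 and GABARAPL2 were called higher on the deposited scale, while BECN1 and NBR1 were called lower, against 7.73% and 69.8% of all features. After rescaling, 8 of the 10 genes were called higher at day 2, 9 at day 3 and 8 at day 5, against 12.9%, 23.9% and 27.5% of all features. None was called lower, and BECN1 was the one gene called at no day.

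**Figure D1:**
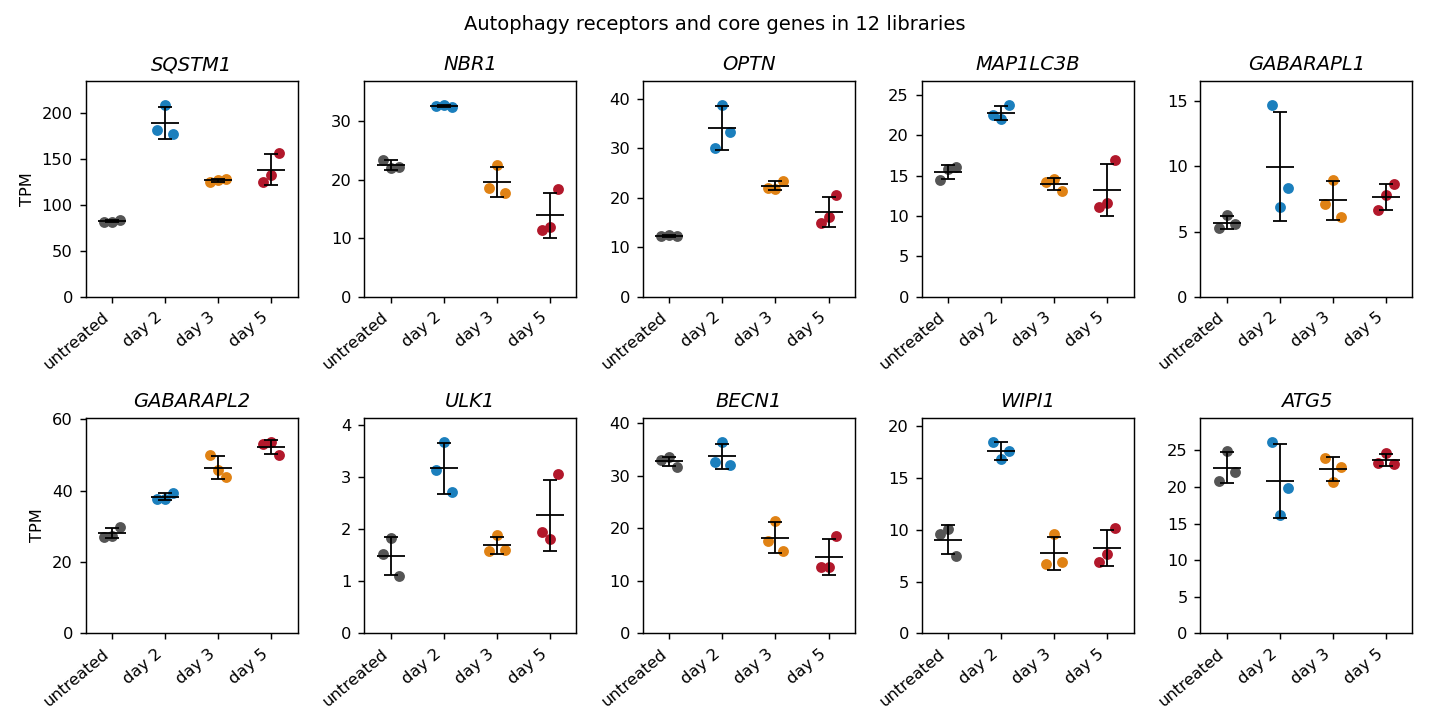
TPM (linear axes from 0, a separate range for each gene) of the 10 genes in the untreated cells and after 2, 3 and 5 days of NGI-1. Each point is 1 library, and bars give the mean and SD of 3 libraries. SQSTM1 and OPTN stood above untreated cells at every day, GABARAPL2 reached a mean of 52.3 TPM at day 5, and BECN1 fell between day 2 and day 3.

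SQSTM1 (chr5:179806398-179838078, + strand, GRCh38, GENCODE 29), also called p62, is the receptor that gathers ubiquitinated proteins into bodies and hands them to the autophagosome. Its level was 81.7, 81.1 and 83.7 TPM in the untreated libraries and 181, 209 and 177 TPM at day 2. It was 125, 127 and 128 TPM at day 3 and 125, 132 and 157 TPM at day 5. Every treated library thus lay above every untreated one, and day 2 lay above both later days. The log2 fold change against untreated was 1.19 at day 2 (SE 0.0915, adjusted p = 3.58e-07, limma), 0.62 at day 3 (adjusted p = 2.94e-05) and 0.74 at day 5 (adjusted p = 3.92e-06). After rescaling it was 1.41, 1.48 and 1.95, with no drop between day 2 and day 3.

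OPTN (chr10:13099449-13138308, + strand), or optineurin, is a receptor for damaged mitochondria and bacteria and is regulated by the kinase TBK1. The untreated libraries held 12.2, 12.5 and 12.2 TPM, the day 2 libraries 30.03, 38.7 and 33.3 TPM, the day 3 libraries 22.0, 21.8 and 23.4 TPM and the day 5 libraries 14.8, 16.1 and 20.5 TPM. The treated libraries never overlapped the untreated ones, and the gap narrowed with time. Against untreated cells OPTN changed by 1.39 on the log2 scale at day 2 (SE 0.124, adjusted p = 1.31e-06, limma), 0.81 at day 3 (adjusted p = 3.78e-05) and 0.44 at day 5 (adjusted p = 0.0047). The value at day 5 was under the fold threshold of 0.5, and became 0.53 without day 5 replicate 1. After rescaling the 3 values were 1.58, 1.62 and 1.58.

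NBR1 (chr17:43170481-43211689, + strand) is a receptor related to SQSTM1 in domain structure that acts with it on ubiquitinated aggregates. Its level was 23.4, 21.9 and 22.2 TPM in untreated cells and 32.6, 32.7 and 32.3 TPM at day 2. It was 18.5, 22.5 and 17.7 TPM at day 3 and 11.5, 11.9 and 18.4 TPM at day 5. NBR1 thus crossed its untreated level: the day 2 libraries were all above it, the day 3 libraries overlapped it and the day 5 libraries were all below. Its log2 fold change was 0.52 at day 2 (SE 0.149, adjusted p = 0.0123, limma), −0.20 at day 3 (adjusted p = 0.239) and −0.68 at day 5 (adjusted p = 6.91e-04). Leaving out untreated replicate 2 brought the value at day 2 to 0.499, just under the threshold. After rescaling the direction at day 3 and day 5 was the opposite, with 0.73, 0.63 and 0.47, of which the last was not called.

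The receptors for ubiquitinated cargo SQSTM1, NBR1, OPTN, CALCOCO2 (NDP52, a receptor for bacteria and mitochondria) and TAX1BP1 (a receptor for protein aggregates), were also set against each other within a library, where scaling between libraries has no part. SQSTM1 took 33.3 to 35.2% of their summed TPM in untreated cells, 45.6 to 48.5% at day 2, 41.0 to 41.8% at day 3 and 44.1 to 49.7% at day 5. The 9 treated libraries exceeded the 3 untreated ones by 10.6 percentage points on average (exact two-sided permutation test, p = 0.00909, adjusted p = 0.0364 over 4 shares). This is the smallest p that 220 choices of 3 libraries allow. The share was chosen with earlier results of these data known, so its p is not an independent check. With only 2 untreated libraries the smallest adjusted p would be 0.145, and the difference was then 9.998 to 10.95 points. OPTN took 5.16% ± 0.0776 (SD, n = 3) of the receptor total in untreated cells, 8.45% ± 0.633 at day 2 and 5.81% ± 0.646 at day 5. NBR1 went from 9.44% ± 0.562 in untreated cells to 4.69% ± 0.987 at day 5. CALCOCO2 went from 23.8% ± 1.19 to 6.45% ± 0.783 over the same days. TAX1BP1 held 27.1% ± 0.407 in untreated cells, less at day 2 (21.2% ± 2.51) and more at day 5 (36.2% ± 5.16). These last shares are descriptions, and were not tested.

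**Figure D2:**
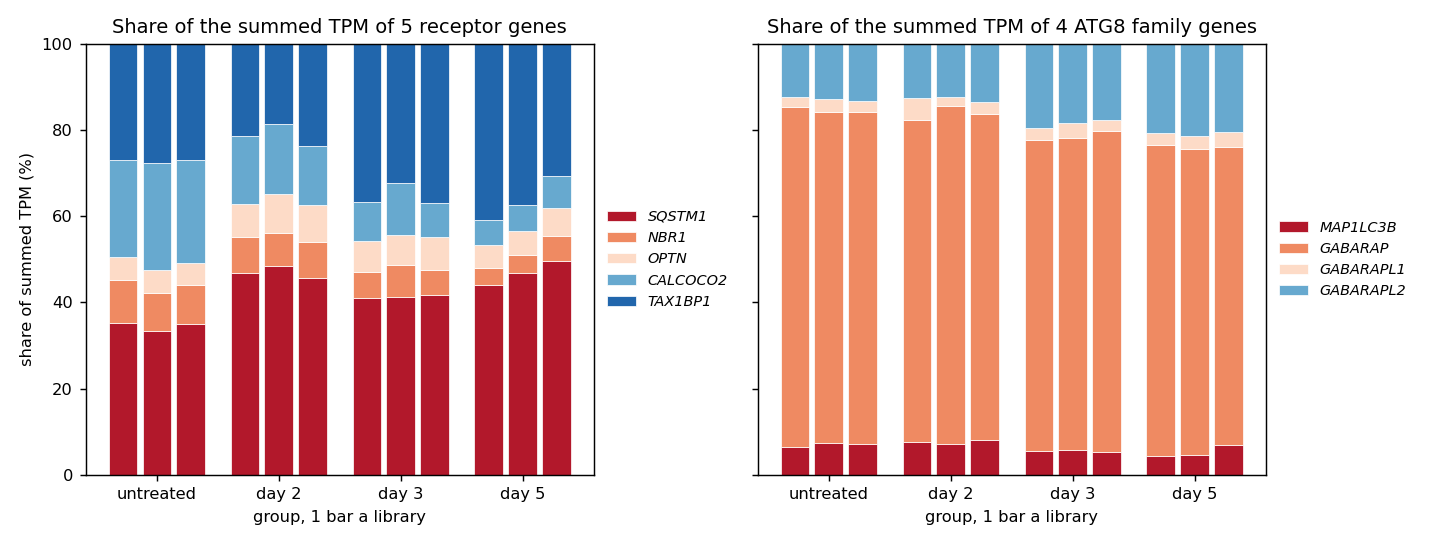
Share (%) of each gene in the summed TPM of 5 receptor genes (left) and of the 4 ATG8 family genes detected above trace level (right), with 1 stacked bar for each of the 12 libraries. The SQSTM1 part was taller in all 9 treated libraries than in the untreated ones, the CALCOCO2 part shrank from 23.8% to 6.45%, and GABARAP kept 70.8% or more of the ATG8 total on average.

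MAP1LC3B (chr16:87383995-87404779, + strand) encodes LC3B, the ATG8 protein whose lipidated form is the usual marker of autophagosomes. The untreated libraries held 14.4, 15.9 and 16.1 TPM and the day 2 libraries 22.5, 22.0 and 23.7 TPM. The day 3 libraries held 14.1, 14.6 and 13.1 TPM and the day 5 libraries 11.1, 11.6 and 16.9 TPM. The rise was seen at day 2 and not later, when the libraries overlapped the untreated range. For MAP1LC3B the log2 fold change was 0.53 at day 2 (SE 0.135, adjusted p = 0.00612, limma), −0.14 at day 3 (adjusted p = 0.353) and −0.24 at day 5 (adjusted p = 0.115). The call at day 2 was lost by fold without untreated replicate 1 (0.48) and without day 2 replicate 3 (0.499). After rescaling the values were 0.74, 0.67 and 0.91, all called higher, so the sign at day 3 and day 5 turned with the scale.

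GABARAPL1 (chr12:10212458-10223130, + strand) is a GABARAP-like ATG8 protein that binds the same receptor motifs. Its level was 5.24, 6.25 and 5.56 TPM in untreated cells, 14.7, 6.92 and 8.33 TPM at day 2, 7.09, 8.99 and 6.10 TPM at day 3 and 6.64, 7.78 and 8.63 TPM at day 5. One library, day 2 replicate 1, was far above the others of its group. The log2 fold change at day 2 was 0.66 (SE 0.214, adjusted p = 0.0231, limma) and 0.37 without that library (adjusted p = 0.105). The call was also lost without untreated replicate 1 (adjusted p = 0.071) or untreated replicate 3 (adjusted p = 0.0584). At day 3 the value was 0.32 (adjusted p = 0.188) and at day 5 0.37 (adjusted p = 0.116), against 1.05 and 1.43 after rescaling, where both were called. The rescaled value at day 2 was 0.82, called higher.

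GABARAPL2 (chr16:75566351-75577881, + strand), also known as GATE-16, is another GABARAP-like ATG8 protein, and its mean level was higher at each later day. The untreated libraries held 27.1, 27.4 and 29.8 TPM, the day 2 libraries 37.7, 37.7 and 39.3 TPM, the day 3 libraries 49.9, 45.8 and 43.7 TPM and the day 5 libraries 53.2, 53.7 and 49.96 TPM. No group overlapped the one before it. GABARAPL2 had a log2 fold change of 0.43 at day 2 (SE 0.0841, adjusted p = 0.00103, limma), which was under the fold threshold, 0.70 at day 3 (adjusted p = 4.02e-06) and 0.87 at day 5 (adjusted p = 3.07e-07). After rescaling it was 0.65, 1.54 and 2.06, which made it the gene with the largest change of the 10 at day 5.

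Within the ATG8 family the total was dominated by GABARAP, which is no member of the 10 and held 77.6% ± 1.09 (SD, n = 3) of it in untreated cells and 70.8% ± 1.65 at day 5. GABARAPL2 held 12.8% ± 0.513 in untreated cells, 12.8% ± 0.619 at day 2, 18.5% ± 0.917 at day 3 and 20.8% ± 0.402 at day 5. Over all 9 treated libraries its share was 4.55 points higher, which did not pass the exact permutation test (p = 0.109, adjusted p = 0.218). The day 2 libraries overlapped the untreated ones (12.3 to 13.3%) in this share. Those of day 3 (17.64 to 19.45%) and day 5 (20.5 to 21.3%) all lay above them, and single days were not tested. The share of MAP1LC3B differed by −0.911 points (exact permutation test, adjusted p = 0.291) and that of GABARAPL1 by 0.523 points (adjusted p = 0.291). For MAP1LC3B this test joined days that moved apart. Its share was 6.5 to 7.4% in untreated cells, 7.1 to 8.1% at day 2, 5.3 to 5.8% at day 3 and 4.3 to 6.9% at day 5. MAP1LC3A and MAP1LC3C never exceeded 0.0304 and 0.0644 TPM.

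ULK1 (chr12:131894651-131923167, + strand) is the kinase that starts autophagosome formation, and it was the least abundant of the 10. Its level was 1.52, 1.84 and 1.11 TPM in untreated cells, 3.14, 3.69 and 2.71 TPM at day 2, 1.59, 1.89 and 1.60 TPM at day 3 and 1.94, 1.81 and 3.06 TPM at day 5. Only the day 2 libraries were all above the untreated ones. For ULK1 the change was 0.75 (log2) at day 2 (SE 0.166, adjusted p = 0.0024, limma), 0.12 at day 3 (adjusted p = 0.506) and 0.39 at day 5 (adjusted p = 0.0424, under the fold threshold). At such levels the added 1 shrinks the fold change. After rescaling the values were 0.81, 0.62 and 1.17, all called higher, and the highest mean was then at day 5 and not at day 2.

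BECN1 (chr17:42810134-42833350, − strand) encodes beclin 1, the scaffold of the lipid kinase complex, and was the member with the largest fall. The untreated libraries held 32.9, 33.5 and 31.7 TPM and the day 2 libraries 32.6, 36.5 and 32.1 TPM. The day 3 libraries held 17.6, 21.5 and 15.6 TPM and the day 5 libraries 12.5, 12.6 and 18.5 TPM. Untreated and day 2 levels overlapped, and all later libraries lay below both. The log2 fold change was 0.041 at day 2 (SE 0.145, adjusted p = 0.839, limma), −0.82 at day 3 (adjusted p = 1.47e-04) and −1.14 at day 5 (adjusted p = 5.03e-06). These falls were close to the median change of all features, and after rescaling the values were 0.26, 0.012 and 0.030 with none called. The gene shares 8966 bases with PSME3 on the opposite strand, and the strand setting of the counting is not given in the sources used here. PSME3 went from 107 ± 10.02 TPM (SD, n = 3) in untreated cells to 61.3 ± 3.33 at day 2 and 18.4 ± 3.23 at day 5, and its part in the BECN1 values was not tested.

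WIPI1 (chr17:68420948-68457513, − strand) binds PI3P on the forming membrane. Its level was 9.59, 10.1 and 7.45 TPM in untreated cells, 18.5, 16.8 and 17.6 TPM at day 2, 6.73, 9.55 and 6.91 TPM at day 3 and 6.84, 7.65 and 10.2 TPM at day 5. The day 2 libraries stood alone, with no overlap with any other group. Its change was 0.90 (log2) at day 2 (SE 0.162, adjusted p = 5.78e-04, limma), −0.21 at day 3 (adjusted p = 0.249) and −0.13 at day 5 (adjusted p = 0.453). After rescaling it was 1.08, 0.56 and 0.96, so the sign at the 2 later days turned with the scale. On that scale the day 5 libraries overlapped those of day 2.

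ATG5 (chr6:106045423-106325791, − strand) is the protein that, joined to ATG12, directs ATG8 proteins onto the membrane. Its level was 20.9, 24.9 and 22.1 TPM in untreated cells, 26.2, 16.2 and 19.9 TPM at day 2, 23.9, 20.6 and 22.7 TPM at day 3 and 23.3, 24.7 and 23.1 TPM at day 5. All groups overlapped on the TPM scale. The log2 fold change was −0.14 (SE 0.142), −0.012 and 0.068, with adjusted p of 0.438, 0.944 and 0.662 (limma). After rescaling the values were 0.080, 0.82 and 1.24, of which the last 2 were called higher. ATG5 overlaps PRDM1 on the opposite strand by 23620 bases and the lncRNA AL022067.1 by 454 bases. PRDM1, a plasma cell transcription factor gene, held 106 ± 11.2 TPM in untreated cells and 130 ± 23.7 TPM at day 5 (SD, n = 3), and AL022067.1 went from 6.69 ± 0.422 to 19.1 ± 3.29 TPM. Their part in the ATG5 values was not tested.

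Counted over the 10 genes at day 2 on the deposited scale, 7 were called higher and 0 lower, against 8.04% of all tested features called higher and 23.2% called lower. No gene was lower at an unadjusted p under 0.05 by limma, the one tool run. Leaving out single libraries gave 5 to 7 genes called higher, with 5 when untreated replicate 1 was left out. The median log2 fold change of the 10 was 0.59 on a scale where that of all features was −0.18, and all 10 values lay above the median of all features. After rescaling 8 were called higher and 0 lower, against 12.9% and 11.4% of all features, with 0 lower at an unadjusted p under 0.05.

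At day 3, 3 of the 10 were called higher (SQSTM1, OPTN and GABARAPL2) and 1 lower (BECN1), against 7.59% and 61.5% of all features. At day 5, 2 were called higher (SQSTM1 and GABARAPL2) and 2 lower (BECN1 and NBR1), against 7.73% and 69.8%. The median of the 10 was 0.056 at day 3 and 0.22 at day 5, and at both days 9 of the 10 lay above the median of all features. After rescaling, 9 were called higher and 0 lower at day 3, against 23.9% and 24.2% of all features. At day 5 they were 8 and 0, against 27.5% and 26.9%. By limma 0 genes were lower at an unadjusted p under 0.05 at either day on that scale. The 3 comparisons use the same untreated libraries and are not independent of each other.

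**Figure D3:**
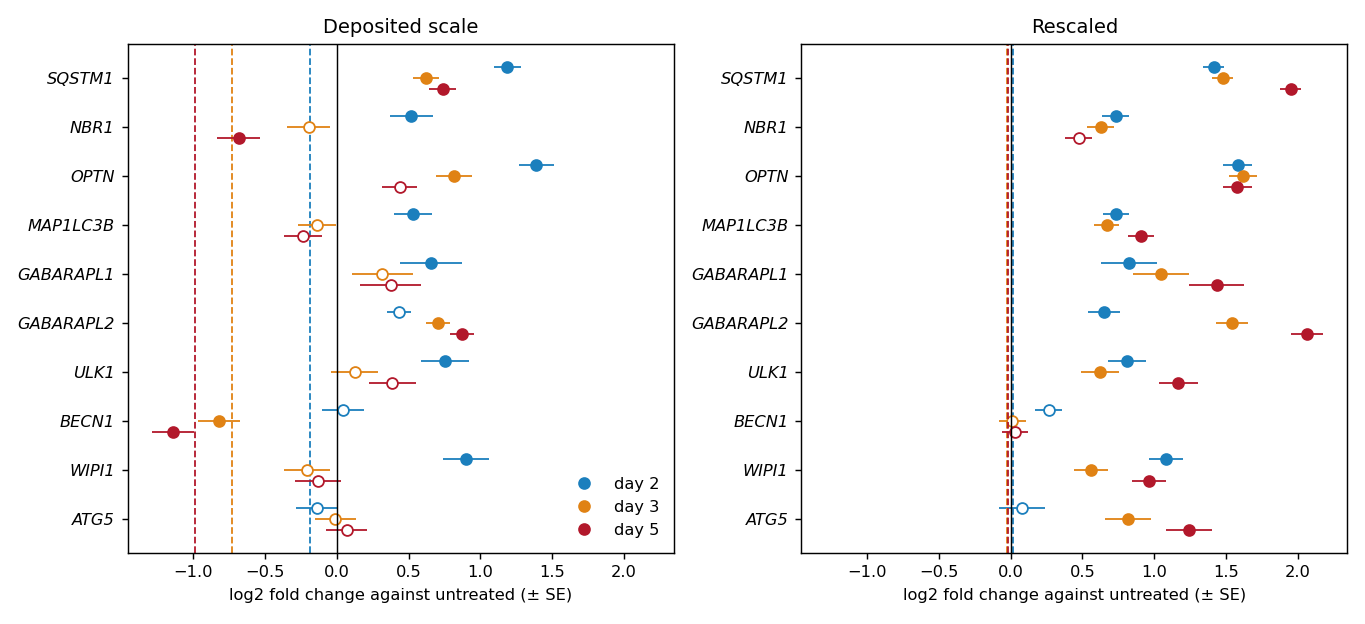
Log2 fold change against untreated (points, with the SE as bars) of the 10 genes at day 2, day 3 and day 5, on the deposited scale (left) and after rescaling (right), with filled points for the calls. Dashed lines give the median of all 11939 features at each day, which was −0.99 at day 5 on the left, where the values of the 10 ran from −1.14 to 0.87.

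The steps between neighbouring days ask when the levels moved. From day 2 to day 3, 7 of the 10 genes fell on the deposited scale and 0 rose, against 55.5% and 3.22% of all features, so the share of falls was near that of the table as a whole. The median step of the 10 was −0.60 and that of all features −0.57. WIPI1 fell most, by 1.11 on the log2 scale (adjusted p = 6.31e-05, limma), and the other falls were BECN1, NBR1, MAP1LC3B, ULK1, OPTN and SQSTM1. Without day 2 replicate 2 the step of SQSTM1 was −0.50 and that of OPTN −0.48, both under the fold threshold, and that of GABARAPL1 passed it at −0.54 (adjusted p = 0.0379). GABARAPL2 was higher at day 3 by 0.27 (adjusted p = 0.01), under the fold threshold, and was the 1 gene higher at an unadjusted p under 0.05. After rescaling 2 genes rose, GABARAPL2 by 0.89 (adjusted p = 4.39e-05) and ATG5 by 0.74 (adjusted p = 0.00254), against 14.3% of all features. On that scale 1 gene fell, WIPI1, with −0.52 (adjusted p = 0.00321), against 13.6% of all features.

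From day 3 to day 5, 0 of the 10 genes were called in either direction on the deposited scale, against 0.670% of all features called higher and 13.1% called lower. At an unadjusted p under 0.05 limma gave 3 lower and 0 higher. NBR1 came nearest with −0.49 (adjusted p = 0.0273), and passed the fold threshold without day 3 replicate 1 (−0.52), day 3 replicate 3 (−0.55) or day 5 replicate 3 (−0.69). OPTN stood at −0.38 (adjusted p = 0.0364) and at −0.51 without day 5 replicate 3. Of the day 5 libraries, replicate 3 lay nearest to the untreated level for BECN1 and NBR1, and its rescaling factor was the nearest to those of the earlier days. After rescaling GABARAPL2 rose by 0.52 (adjusted p = 0.0088) and ULK1 by 0.55 (adjusted p = 0.0205), against 4.43% of all features called higher. None fell, against 2.03%, and 0 were lower at an unadjusted p under 0.05.

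The order of the levels differed between the groups. TPM is a value per transcript length, so genes can be compared. In untreated cells SQSTM1 was highest at 82.1 ± 1.37 TPM (SD, n = 3), followed by BECN1 at 32.7 ± 0.913 and GABARAPL2 at 28.1 ± 1.49, none of which overlapped the next. ATG5 at 22.6 ± 2.09 and NBR1 at 22.5 ± 0.782 could not be ordered, and then came MAP1LC3B, OPTN, WIPI1, GABARAPL1 and ULK1 without overlap. At day 5 SQSTM1 at 138 ± 16.8 TPM was followed by GABARAPL2 at 52.3 ± 2.03 and ATG5 at 23.7 ± 0.841. OPTN, BECN1, NBR1 and MAP1LC3B came next, at mean levels of 13.2 to 17.2 TPM, and each overlapped its neighbour. ULK1 was last in every group.

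GABARAPL2 and BECN1 had the largest rise and the largest fall at day 5 on the deposited scale. The genes with patterns most like theirs were looked up on the rescaled scale over 12 libraries and 5433 features. For GABARAPL2 they were the snoRNA host gene GAS5 (Pearson r = 0.997), TOMM7, a small subunit of the mitochondrial import channel (r = 0.997), and RPL37, a ribosomal protein gene (r = 0.996). For BECN1 they were MACO1 (r = 0.925), RUBCN, which encodes a negative regulator of the lipid kinase complex (r = 0.925), and FNDC3B (r = 0.924). On the rescaled scale BECN1 changed by 0.26, 0.012 and 0.030 against untreated cells at day 2, day 3 and day 5, with none called. The match therefore does not describe its fall on the deposited scale. The points share the group structure and the rescaling, so these are descriptions.

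The stretches just before the annotated starts of 3 genes are shown because these genes took different courses on the deposited scale: GABARAPL2 was higher at each later day, while ULK1 and WIPI1 were highest at day 2. They are RefSeq promoter windows (GRCh38.p14) up to the first base of any annotated exon, read 5′ to 3′ on the strand of the gene. GABARAPL2 is at chr16:75566129-75566350 on the + strand (68.0% G or C), ULK1 at chr12:131894372-131894621 on the + strand (78.0%) and WIPI1 at chr17:68457514-68457746 on the − strand (79.0%). No capitals appear, since none of the motifs named after them was found.
GABARAPL2: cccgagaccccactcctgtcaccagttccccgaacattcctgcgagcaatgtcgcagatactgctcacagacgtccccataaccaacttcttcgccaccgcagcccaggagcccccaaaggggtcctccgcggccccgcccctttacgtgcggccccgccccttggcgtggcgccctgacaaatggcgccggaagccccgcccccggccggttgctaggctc
ULK1: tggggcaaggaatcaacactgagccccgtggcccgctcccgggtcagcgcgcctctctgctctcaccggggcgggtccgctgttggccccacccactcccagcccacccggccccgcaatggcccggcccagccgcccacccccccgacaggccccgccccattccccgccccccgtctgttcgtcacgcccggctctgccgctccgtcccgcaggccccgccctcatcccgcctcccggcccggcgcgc
WIPI1: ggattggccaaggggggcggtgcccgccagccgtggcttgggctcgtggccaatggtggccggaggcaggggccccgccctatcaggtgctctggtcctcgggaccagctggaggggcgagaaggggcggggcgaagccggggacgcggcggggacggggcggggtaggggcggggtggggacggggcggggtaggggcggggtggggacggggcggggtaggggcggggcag

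All 10 genes matched the promoter table, with 15 windows of 250 bases before a start. Of these windows 10 lay wholly inside the span of their gene in GENCODE 29, before an internal start. On both strands they were searched for CACGTG, the core of the element bound by TFEB and its relatives, for TGACNNNGC, the antioxidant response element, and for TGATGNAAN, the amino acid response element bound by ATF4. Of all 35116 windows of that length, 6.34%, 10.9% and 3.13% held them. Among the 15 windows 1 held a match, the antioxidant response element letters before MAP1LC3B, shown in capitals within 30 bases at chr16:87392280-87392309 on the + strand. This window is one of those inside the gene, and GENCODE 29 places it in the first exon of a longer transcript. A match of letters is a description, and the other 14 windows say only that these letters are not in them.
MAP1LC3B: gcgagtcaccTGACCAGGCtgcgggctgag

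The other genes of the pathway were taken as 66 genes in 10 groups, of which 63 were tested; ULK2 was listed at 0. At day 2, 4 were called higher and 3 lower. Day 3 gave 4 higher and 37 lower, and day 5 gave 3 higher and 42 lower. Their median log2 fold change was 0.016, −0.67 and −0.90. Of all features 8.04%, 7.59% and 7.73% were called higher at these days, and 23.2%, 61.5% and 69.8% lower. At day 2 the genes called higher were CALCOCO1 (1.69), WDR45 (0.85), CCPG1 (0.73) and BNIP3L (0.61), and the genes called lower were ATG16L1 (−0.80), ATL3 (−0.63) and PIK3R4 (−0.54). After rescaling the counts were 15 higher and 1 lower at day 2, then 20 higher and 6 lower, and finally 22 higher and 5 lower. Of all features 12.9%, 23.9% and 27.5% were then called higher, and 11.4%, 24.2% and 26.9% lower. The 1 lower call at day 2 was a conjugation gene, so ATL3 and PIK3R4 were no longer called lower.

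Among the other selective receptors 2 of 9 were called higher at day 5 and 4 lower, against 7.73% and 69.8% of all features. After rescaling the counts were 5 higher and 0 lower, against 27.5% and 26.9%. TAX1BP1 went from 64.7 ± 2.39 TPM (SD, n = 3) in untreated cells to 106 ± 9.48 at day 5, a log2 fold change of 0.70 (adjusted p = 5.48e-06, limma). CALCOCO2 went from 56.8 ± 4.18 to 19.1 ± 3.58 TPM, and changed by −1.54 (adjusted p = 6.32e-07). FUNDC1, a mitophagy receptor, rose by 0.96, and NCOA4, the ferritin receptor, BCL2L13 and TOLLIP fell by 1.20, 1.15 and 1.03 on the deposited scale. After rescaling TAX1BP1 (1.91) and FUNDC1 (2.03) were called higher, and CALCOCO2 (−0.35), NCOA4 (−0.013), BCL2L13 (−0.023) and TOLLIP (0.0995) were not called. BNIP3 (−0.47), BNIP3L (−0.26) and FKBP8 (−0.38), which act on mitochondria, were not called at day 5 on the deposited scale. After rescaling their signs turned and all 3 were called higher, with 0.70, 0.91 and 0.82.

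The ER-phagy receptors, which deliver parts of the endoplasmic reticulum to autophagosomes, split most widely. CALCOCO1 went from 14.2 TPM in untreated cells to 48.1 at day 2, 33.3 at day 3 and 28.7 at day 5, and was called higher at each day. RTN3 and ATL3, which bind tubules of the endoplasmic reticulum, fell to 22.7 and 9.03 TPM at day 5 from 83.5 and 36.0 TPM, with log2 fold changes of −1.87 and −1.89, and were called lower after rescaling too (−0.67 and −0.74). On the deposited scale SEC62 was called at day 3 alone (0.58), and CCPG1, induced in the unfolded protein response, at day 2 alone. After rescaling both were called higher at all 3 days, SEC62 with 0.55, 1.44 and 1.56 and CCPG1 with 0.95 at day 2 and 1.25 at day 5. RETREG1, or FAM134B, stayed at or below 3.26 TPM and gave 0.41 at day 5, and TEX264 gave −0.22, neither of them called. After rescaling both were called higher at day 5, RETREG1 with 1.24 and TEX264, whose sign turned, with 0.97. GABARAP, the most abundant ATG8 gene, held 170 TPM in untreated cells and 229 at day 2, with log2 fold changes of 0.42, 0.11 and 0.060 that were under the fold threshold at all 3 days. After rescaling it was called at each day (0.65, 0.97 and 1.28).

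The machinery groups were mostly lower by day 5 on the deposited scale, where 69.8% of all features were called lower. In the ULK complex 2 of 3 tested genes were called lower, from RB1CC1 at −0.085 to ATG13 at −1.20. In the lipid kinase complex 5 of 7 were lower (ATG14 −0.089, AMBRA1 −1.42), and among PI3P effectors 2 of 4 (WDR45 −0.094, WDR45B −1.38). All 5 lipid transfer genes were lower (VMP1 −0.61, ATG9A −1.54), as were 9 of 10 conjugation genes (ATG10 0.10, ATG16L1 −1.80). Of the fusion genes 7 of 9 were lower (VAMP8 −0.44, YKT6 −1.52) and of the upstream regulators 6 of 8 (TBK1 0.21, PRKAA1 −1.74). After rescaling, with 27.5% of all features called higher and 26.9% lower, nearly all these lower calls ended. The counts were then 1 higher and 0 lower in the ULK complex, 2 and 0 in the lipid kinase complex, 1 and 0 for PI3P effectors, 1 and 0 for lipid transfer, 2 and 1 for conjugation, 2 and 0 for fusion and 2 and 2 for the upstream regulators. Each pair in brackets is the highest and the lowest log2 fold change of its group at day 5.

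**Figure D4:**
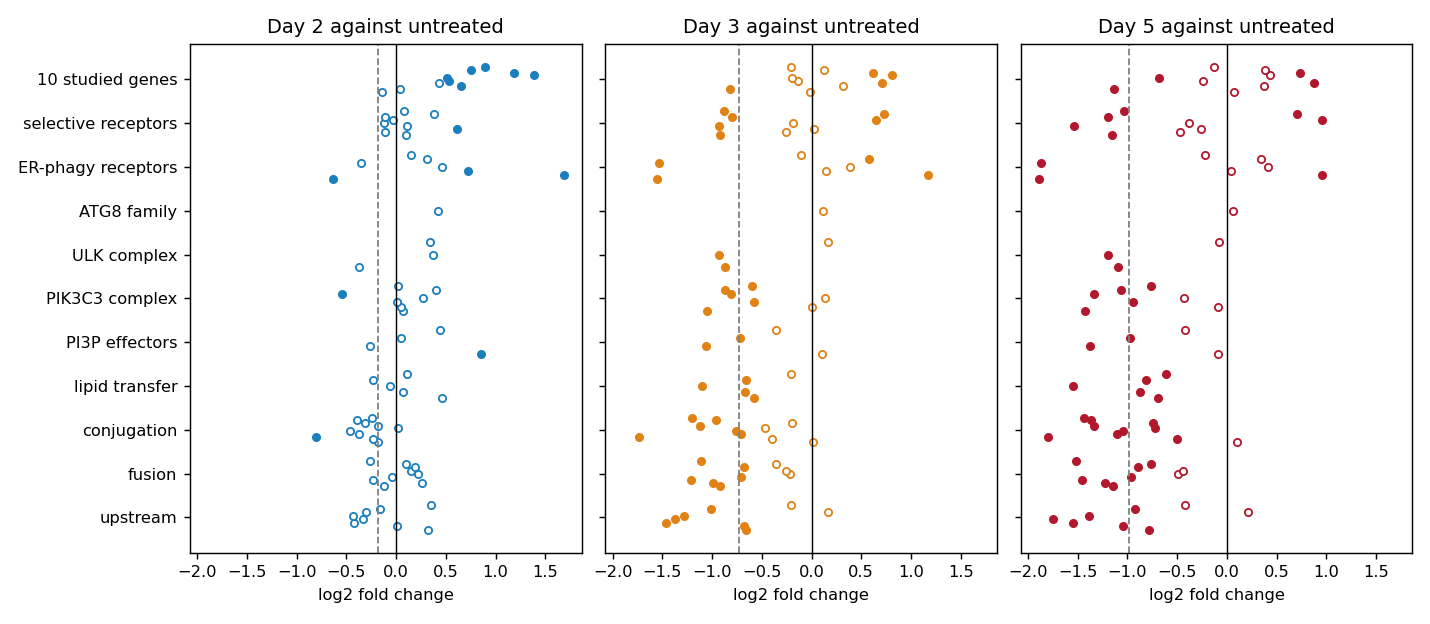
Log2 fold change against untreated on the deposited scale at day 2, day 3 and day 5 for the 10 studied genes and for 63 other autophagy genes in 10 groups, 1 point a gene, filled where called. The dashed line is the median of all features (−0.18, −0.73 and −0.99), which most machinery genes followed, while CALCOCO1 at 1.69 was the highest point at day 2.

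Near copies could take or lend reads. MAP1LC3B2 reached at most 1.30 TPM and GABARAPL3 0.0303 TPM, and BECN2, BECN1P2, MAP1LC3BP1 and SQSTM1P1 were listed at 0 in all 12 libraries. Opposite-strand neighbours also overlapped SQSTM1 (MGAT4B, 555 bases, and MRNIP, 2946 bases), MAP1LC3B (FBXO31, 8148 bases) and WIPI1 (ARSG, 1784 bases). Mean levels of ARSG were 2.82 TPM in untreated cells, 4.32 at day 2 and 2.07 at day 5. Those of FBXO31 were 6.35, 6.46 and 2.72 TPM, and MRNIP reached at most 4.92 TPM. The part of these neighbours in the values of the overlapped genes was not tested. MGAT4B held 25.7 ± 1.59 TPM (SD, n = 3) in untreated cells and 30.1 ± 3.94 at day 2, which is below SQSTM1 in each group, and its part in the SQSTM1 values was not tested.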

How the data were processed

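RNA-seq of 12 MM1S libraries was used, 3 each from untreated cells and from day 2, day 3 and day 5 of NGI-1. Per the labels, 200 ng of total RNA was sequenced at a depth above 60 M read pairs per library. The authors deposited 1 table of log2(TPM + 1) by gene symbol. Their notes name FastQC, Trimmomatic, STAR, Salmon and hg38; versions, annotation and strand setting are not given in the sources used here. TPM keeps no depth, so no counting interval is given. Features of 1 TPM or more in at least 3 libraries (11939) were fitted with limma 3.58.1 (R 4.3.3), with 1 mean per group, a mean-variance trend and Benjamini-Hochberg adjustment within a contrast. A call required both an adjusted p below 0.05 and a change larger than 0.5 (log2). For rescaling, each library was divided by a constant, chosen so that the log2 ratios of 5433 features to their own means had a median of 0; these were features averaging at least 10 TPM. On simulated data of 11939 features built from all 12 libraries, 193 of 200 changed features were recovered, with 7 false calls among the unchanged ones. The changes were put in at day 5 alone, without a shift of the whole table. They were larger than that of any of the 10 genes on the deposited scale, so recovery near the fold threshold was not tested. Shares were tested by exact permutation (scipy 1.17.1). The genes, lists and tests were chosen with earlier results of these data known. Named were all 10 genes, every receptor and ATG8 gene above 0, the highest and lowest gene of each other group at day 5, near copies and neighbours; the genes called at day 2 in the other groups were named after their values were seen. The fits were repeated without the filter, at a minimum of 5 TPM, with 0.1 added in place of 1, with rescaling, after removal of the 20 most abundant features, by pairs of groups, with no trend, with a fold threshold of 1 and without each library in turn. GENCODE 29 gave positions.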

Additional observations from a re-analysis of the deposited data

Results flagged for a closer look

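For 7 of the 10 genes the change against untreated cells differed between day 2 and day 3. This was tested by the limma contrast between these days on the deposited scale, where time in culture and NGI-1 go together. The differences in log2 fold change, day 3 minus day 2, were −1.11 for WIPI1, −0.86 for BECN1, −0.71 for NBR1, −0.67 for MAP1LC3B, −0.63 for ULK1, −0.58 for OPTN and −0.57 for SQSTM1. Of all tested features 55.5% were called lower over the same step. In each of the 7 genes all 3 day 3 libraries lay below all 3 day 2 libraries, as in 50 of the 63 other autophagy genes tested. This was not counted over all features. The 7 genes were picked by the same contrast, so the separation is a description only. The median over all features was −0.57, and after rescaling the difference was called for WIPI1 alone of the 7, at −0.52.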

How the results depend on the processing

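Scaling had the largest effect. Under rescaling the 10 genes called higher and lower were 8 and 0 at day 2, 9 and 0 at day 3, 8 and 0 at day 5, 2 and 1 from day 2 to day 3 and 2 and 0 from day 3 to day 5, and the other autophagy genes 15 and 1, 20 and 6, and 22 and 5. Of all features 12.9%, 23.9% and 27.5% were called higher and 11.4%, 24.2% and 26.9% lower at day 2, day 3 and day 5. The shares were 14.3% and 13.6% from day 2 to day 3, and 4.43% and 2.03% from day 3 to day 5. Rescaling turned the sign of 15 of 50 log2 fold changes: at day 2 ATG5 (0.08), at day 3 NBR1 (0.63), MAP1LC3B (0.67), BECN1 (0.012), WIPI1 (0.56) and ATG5 (0.82), at day 5 NBR1 (0.47), MAP1LC3B (0.91), BECN1 (0.030) and WIPI1 (0.96), from day 2 to day 3 SQSTM1 (0.061), OPTN (0.038) and GABARAPL1 (0.22), and from day 3 to day 5 MAP1LC3B (0.24) and BECN1 (0.017). Without the 20 most abundant features day 5 gave 5 genes higher and 1 lower, and the sign turned for NBR1 (0.045), MAP1LC3B (0.099), WIPI1 (0.017) and ATG5 (0.23) at day 3 and for MAP1LC3B (0.066) and WIPI1 (0.16) at day 5. A log2 fold change over 1 left 2 genes higher at day 2, 0 higher and 0 lower at day 3, 0 higher and 1 lower at day 5 and 1 lower from day 2 to day 3. A pseudocount of 0.1 gave 1 lower from day 3 to day 5. For the settings other than rescaling, and for the fits without single libraries, the share of all features called was not counted. The counts there describe the 10 genes only. The causes were not tested.

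Leaving out 1 library gave 0 to 2 genes lower from day 3 to day 5, and an SQSTM1 share difference of 9.998 to 11.1 points. It turned the sign of values near 0: MAP1LC3B −0.28 to 0.0069, GABARAPL1 −0.056 to 0.19 and WIPI1 −0.069 to 0.22 from day 3 to day 5, BECN1 −0.015 to 0.074 and ATG5 −0.32 to 0.016 at day 2, and ATG5 −0.066 to 0.057 at day 3 and −0.027 to 0.30 from day 2 to day 3. Of 600 such values 576 kept direction and call. Pairwise fits and a fit without the trend changed no call among 50 values, no filter ended 1 call, and a TPM minimum of 5 removed ULK1 and changed none of the other 45. No paired analysis was possible because the labels give no replicate number that libraries of different groups share. The table keeps no read counts, so counting error cannot be given for any gene.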
